A study of Mus musculus with 6 samples.

Results

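The interferon regulatory factor family in mouse comprises the Irf genes, which encode DNA-binding transcription factors, and the Irf2bp genes, which encode zinc finger and RING proteins. Of the latter, IRF2BP1 and IRF2BP2 were first described as corepressors of IRF2. The 10 genes considered were Irf1, Irf2, Irf3, Irf4, Irf7, Irf8, Irf9, Irf2bp1, Irf2bp2 and Irf2bpl. Their sites were the rows of the deposited table of differing UTX sites that carry one of these gene symbols. These were 16 of 6739 sites, at 7 of the 10 genes. Over all 21900 protein-coding genes, 22.1% had a listed site lower in UTX-deficient cells. Irf2, Irf8 and Irf2bp1 had no row under their own symbol, and neither did Irf5.

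The sites came from CUT&Tag with an antibody against UTX, the product of Kdm6a, which removes methyl groups from lysine 27 of histone H3. In this assay an antibody-tethered transposase cuts and tags the DNA around the bound protein. Nuclei were taken from CD8+ T cells sorted as Ly108+CXCR6- from pancreatic lymph nodes. There were 3 samples of the UTX-deficient genotype, from UTXTCD.NY8.3 mice in which UTX is deleted in T cells only, and 3 WT samples from NOD.NY8.3 mice. All mice of both groups were NY8.3 animals, whose CD8 T cells carry a transgenic receptor for a pancreatic islet antigen. The age and sex of the mice, the driver of the deletion and any pooling of animals are not given in the labels. No label says that samples of a group came from separate animals, so the tests measure the spread between these samples, which may be technical.

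IRF proteins bind DNA elements built from repeats of GAAA through a shared amino-terminal domain. IRF3 and IRF7 are activated by phosphorylation downstream of viral nucleic acid sensors and switch on interferon genes, while IRF9 joins STAT proteins, STAT2 among them, in the complex that carries the type I interferon signal to the nucleus. IRF1 is induced by interferon gamma, IRF2 binds the same elements and often opposes it, and IRF4 is induced in T cells in proportion to the strength of receptor signalling and acts there together with BATF and AP-1 proteins.

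Among the 7 genes, 5 had a site inside or across the gene, and the sequences of the promoter windows in question show how different these starts are. The windows come from RefSeq, build GRCm38.p6 (the assembly of mm10), and reach from 250 bases before a transcription start to 50 bases after it. They are shown 5′ to 3′ on the strand of the gene. All 10 genes matched the table by symbol, with 13 windows between them. Capitals mark matches, on either strand, to GAAANNGAA, the core of the element that IRF proteins bind, or to TTCNNNGAA, the core of the element that STAT proteins bind. Matches to the 2 motifs did not overlap in these windows. Irf1 is shown for the strongest signal at a start among the Irf genes, Irf2 for a site that the table assigns to another gene, Irf7 for the weakest call, Irf2bp2 for the best covered site, and Irf2bpl for the gene with the most sites.
Irf1, chr11:53769764-53770063, plus strand: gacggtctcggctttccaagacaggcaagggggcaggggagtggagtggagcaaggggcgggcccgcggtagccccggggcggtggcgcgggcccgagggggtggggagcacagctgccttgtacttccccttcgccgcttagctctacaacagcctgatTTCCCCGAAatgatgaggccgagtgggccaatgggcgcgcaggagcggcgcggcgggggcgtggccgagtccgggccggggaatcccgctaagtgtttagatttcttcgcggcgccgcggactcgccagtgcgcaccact
Irf2, chr8:46739495-46739794, plus strand: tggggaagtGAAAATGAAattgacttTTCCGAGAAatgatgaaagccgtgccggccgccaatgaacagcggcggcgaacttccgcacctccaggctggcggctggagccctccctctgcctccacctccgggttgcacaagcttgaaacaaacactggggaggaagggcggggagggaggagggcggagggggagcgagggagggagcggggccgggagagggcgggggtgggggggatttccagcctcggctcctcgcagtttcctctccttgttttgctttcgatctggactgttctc
Irf7, chr7:141266375-141266674, minus strand: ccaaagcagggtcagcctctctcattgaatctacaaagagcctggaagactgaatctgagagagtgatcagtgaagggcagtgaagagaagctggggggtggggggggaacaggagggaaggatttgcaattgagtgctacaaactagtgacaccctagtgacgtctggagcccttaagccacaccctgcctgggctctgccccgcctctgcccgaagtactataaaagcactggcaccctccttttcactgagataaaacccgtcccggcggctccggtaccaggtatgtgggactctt
Irf2bp2, chr8:126593937-126594236, minus strand: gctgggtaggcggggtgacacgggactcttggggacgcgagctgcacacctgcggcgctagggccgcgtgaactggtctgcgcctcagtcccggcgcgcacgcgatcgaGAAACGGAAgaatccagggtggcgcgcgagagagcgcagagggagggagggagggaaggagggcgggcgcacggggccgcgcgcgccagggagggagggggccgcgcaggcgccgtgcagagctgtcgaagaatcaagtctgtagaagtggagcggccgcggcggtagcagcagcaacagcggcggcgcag
Irf2bpl, chr12:86884765-86885064, minus strand: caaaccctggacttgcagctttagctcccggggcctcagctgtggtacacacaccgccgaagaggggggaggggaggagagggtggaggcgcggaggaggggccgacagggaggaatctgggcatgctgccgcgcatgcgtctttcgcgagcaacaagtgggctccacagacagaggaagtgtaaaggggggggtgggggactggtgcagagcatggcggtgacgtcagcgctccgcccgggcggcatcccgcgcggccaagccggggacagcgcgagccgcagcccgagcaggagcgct

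All 300 bases of the Irf1, Irf2 and Irf2bpl windows lay inside a listed site, as did 252 bases of the Irf7 window and none of the Irf2bp2 window. The Irf1 window held 32 CpG dinucleotides and the Irf2bpl window 26, and 91.4% and 84.5% of all 32851 windows held as many or fewer, while the Irf7 window held 7, the median over all windows. GAAANNGAA matched in the Irf2 window (GAAAATGAA) and in the Irf2bp2 window (GAAACGGAA), which makes 2 of the 13 windows of the 10 genes. The motif was present in 8.56% of all windows and in 5.32% of the 4208 windows that overlapped a listed site. TTCNNNGAA was added after the data had been seen. It matched in the Irf1 window (TTCCCCGAA), the Irf2 window (TTCCGAGAA), the Irf2bp1 window and 1 Irf8 window. Of these, the Irf2bp1 and Irf8 windows overlapped no listed site. TTCNNNGAA was present in 8.3% of all windows and in 5.3% of the 4208 that overlapped a listed site. These are matches of letters only, and so few windows describe the genes rather than the family.

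Reads per library were recovered from the deposited group values, as described under the processing of the data, and all 16 sites had exactly 1 solution. The libraries carry no replicate number after this step, so they are given from the deepest to the shallowest of their group. Relative to a mean of 1, depth was 1.93, 1.07 and 0.00577 in the UTX-deficient libraries and 1.28, 0.916 and 0.792 in the WT libraries. Over the 16 sites together, the UTX-deficient libraries held 34, 76 and 0 reads and the WT libraries 885, 738 and 514. The shallowest UTX-deficient library would have held 4.13 reads in all 16 sites at the WT level, between 0.134 and 0.501 at a site, so a 0 in that library cannot tell the groups apart. It held 0 reads at all sites with recovered reads that were lower in UTX-deficient cells, and its 80 reads all lay in the few other listed sites. A single read of it is worth 173.2 normalized reads, above the highest WT value at the 16 sites (98.2), so a 0 there is close to a condition for being listed as lower. Percentages left and fold ratios of reads therefore rest on the 2 deeper UTX-deficient libraries. UTX-deficient means and SDs given with n = 3 include that 0, which lowers the mean. The authors' UTX-deficient concentrations also average over this library. Their folds and FDRs compare the same groups and were not available without it. As a check of the labelled cell type, 4 of 5 CD8 T cell markers found in the annotation had listed sites (Cd8a, Cd8b1, Cd3d and Cd3e, but not Cd3g), as had the sort markers Slamf6 and Tcf7. None of 5 B cell, 9 myeloid and dendritic and 3 natural killer markers had one, and Cxcr6, which the sort selected against, had 2. Genes outside these marker lists had sites too. By the authors' deposited table the log2 change was -5.66 at Cd4 and -2.41 at Spi1, beside -4.70 at Cd3d and -3.63 at Cd8a. Cd4 and Spi1 were added to the check with their values known. Listed sites thus do not single out the CD8 lineage. Binding of UTX is no measure of expression, and this check says only where sites were listed.

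At each of the 16 sites the UTX-deficient cells had less UTX signal than the WT cells. The authors' deposited table gives log2 folds (UTX-deficient over WT) from -5.62 to -2.62, with a median of -3.98, beside a median of -3.51 over all 6718 sites lower in UTX-deficient cells. The table lists only sites with an FDR under 0.05, so the calls themselves are a condition of being listed: of the 8293 tests behind it, 81.0% were called lower in UTX-deficient cells. By limma on the recovered reads without the shallowest library, the medians were closer, -3.83 over the 16 sites and -3.645 over all sites. The median WT concentration (log2) was 5.28 at the 16 sites and 4.94 at all sites lower in UTX-deficient cells. The difference between the medians was not tested. Summed over the 16 sites, the signal was 29.5 ± 36.9 normalized reads in UTX-deficient cells and 715.5 ± 80.9 in WT cells (SD, n = 3 each). Without the shallowest UTX-deficient library the mean of that group was 44.2, and WT exceeded it 16.2-fold. At each of the 16 sites every WT library lay above every UTX-deficient library, a state shared by 99.8% of all sites with recovered reads. With 3 libraries against 3, no exact permutation test can give a two-sided p under 0.1. By limma on the recovered reads without the shallowest library, all 16 sites were lower in UTX-deficient cells, the largest adjusted p being 0.000191, against 99.8% of all sites.

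**Figure D1:**
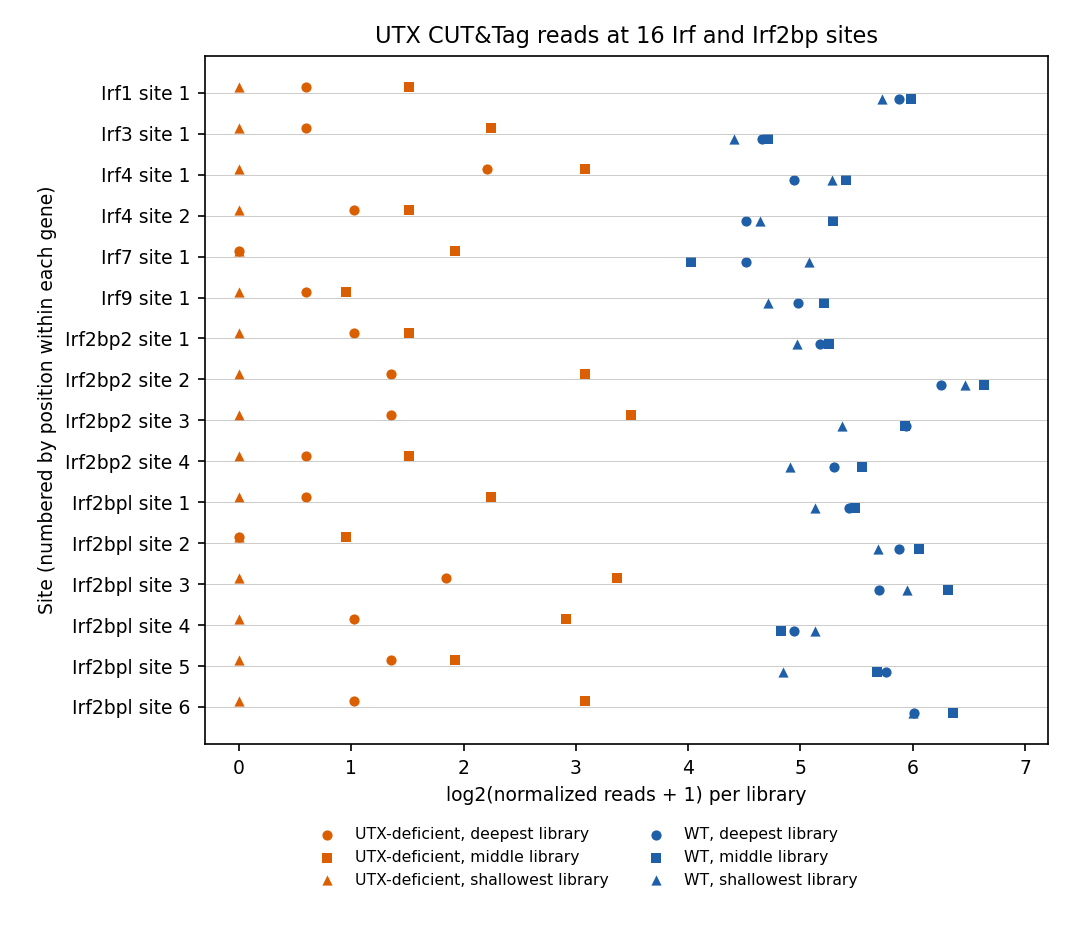
Normalized reads per library at the 16 sites, as log2(normalized reads + 1) on the horizontal axis, with the UTX-deficient libraries above the WT libraries in each row and marker shapes for the deepest, middle and shallowest library of a group. The WT points lie to the right of all UTX-deficient points in every row, with Irf2bp2 site 2 highest in WT at 75.1 to 98.2 normalized reads, and the shallowest UTX-deficient library is at 0 throughout.

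Of the factors that respond to interferon, Irf1 had the strongest site. It lay on chromosome 11 from 53769697 to 53770097 and spanned the first annotated start, with its middle 117 bases before it. It held 1, 2 and 0 reads in the UTX-deficient libraries and 74, 57 and 41 in the WT libraries, or 0.794 ± 0.963 normalized reads in UTX-deficient and 57.3 ± 5.26 in WT cells (SD, n = 3 each). The 2 deeper UTX-deficient libraries kept 2.08% of the mean WT signal, and the groups were far apart, the lowest WT library being 27.8 times the highest UTX-deficient one. The authors' deposited table puts the change at -5.03 on the log2 scale (FDR 4.89e-14), at percentile 2.08 of all listed folds. By limma without the shallowest library the log2 difference was -4.80 ± 0.51 (SE, adjusted p = 3.95e-07). The Irf9 site, on chromosome 14 from 55604070 to 55604470, lay inside the gene between its annotated starts, 285 bases past the first. Reads there were 1, 1 and 0 in the UTX-deficient libraries and 39, 33 and 20 in the WT libraries, and the authors' deposited table puts the change at -4.31 on the log2 scale (FDR 7.86e-08). The WT level at Irf9 was thus near the middle of all sites, at percentile 49.9, while little signal, 2.37%, was left in the 2 deeper UTX-deficient libraries.

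The genes of the factors that switch on interferon, Irf3 and Irf7, had the sites with the lowest WT levels of the family. The Irf3 site, on chromosome 7 from 44997286 to 44997686, held 1, 4 and 0 reads in the UTX-deficient libraries and 31, 23 and 16 in the WT libraries. The Irf7 site, on chromosome 7 from 141266226 to 141266626, held 0, 3 and 0 reads in the UTX-deficient libraries and 28, 14 and 26 in the WT libraries. The groups did not overlap at either site, and WT means were close, 23.2 ± 2.62 and 23.3 ± 8.86 normalized reads (SD, n = 3). The authors' deposited table puts the change at -2.83 (log2, FDR 0.00157) for Irf3 and at -2.77 (log2, FDR 0.0168) for Irf7, and these FDRs were the highest of the 16. At Irf7 the concentrations were 0 in UTX-deficient and 4.54 in WT cells (log2), so the authors' fold is not their plain difference. The 2 deeper UTX-deficient libraries kept 9.16% of the WT signal at Irf3 and 5.99% at Irf7, beside a median of 5.75% over all sites lower in UTX-deficient cells. By limma without the shallowest library the log2 differences were -3.17 ± 0.49 and -3.58 ± 0.52 (SE). Both sites covered a start: the middle of the Irf7 site was 2 bases from the annotated start, while at Irf3 the start of Bcl2l12, transcribed the other way, was nearer (93 bases) than that of Irf3 itself (162 bases). The Irf3 site therefore cannot be given to one of these genes by position.

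Irf4, the factor graded by receptor signalling, had 2 sites, and neither was near its start. The first, on chromosome 13 from 30786128 to 30786528, lay 37095 bases past the start and 19347 bases beyond the end of the gene, in sequence annotated to no gene. The second, from 30792149 to 30792549, lay 43116 bases past the start, inside Exoc2, which encodes a subunit of the exocyst. The first site held 7, 8 and 0 reads in the UTX-deficient libraries and 38, 38 and 30 in the WT libraries. This was the smallest decrease among the 16, at -2.62 on the log2 scale (FDR 3.78e-07) by the authors' deposited table, with 15.2% of the WT signal left in the 2 deeper UTX-deficient libraries. By limma without the shallowest library it was -2.57 ± 0.54 (SE, adjusted p = 0.000191). The second held 2, 2 and 0 reads in UTX-deficient and 28, 35 and 19 in WT libraries, and the authors' deposited table puts its change at -3.58 on the log2 scale (FDR 5.08e-06). No other listed site lay within 100 kb of the Irf4 pair, and no protein-coding start on file was nearer to either site than that of Irf4.

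Irf2 had no row under its own symbol, yet its start was covered. A site on chromosome 8 from 46739473 to 46739873, assigned in the table to Gm16675, a lncRNA gene, held the whole promoter window of Irf2, with its middle 72 bases from the annotated Irf2 start. It held 2, 3 and 0 reads in the UTX-deficient libraries and 58, 39 and 41 in the WT libraries, or 1.28 ± 1.41 normalized reads in UTX-deficient and 46.6 ± 4.71 in WT cells (SD, n = 3 each). Its change was -4.29 on the log2 scale (FDR 8.54e-13) by the authors' deposited table, and its WT mean lay above those of Irf3, Irf4, Irf7 and Irf9. This site was named after its values had been seen. Counted by the nearest protein-coding start, whatever symbol was assigned, 7 of the 10 genes had a listed site, Irf2 being gained and Irf3 lost to Bcl2l12, against 21.2% of all protein-coding genes. With sites across the gene counted too, a rule added after seeing the data, 8 of the 10 had one, against 27.2% of all. Irf8, which directs myeloid differentiation, remained without one, the nearest listed site being 67952 bases from the gene, and so did Irf2bp1, with 12932 bases to a site assigned to Mypop. Irf1 likewise had 2 further sites for which its start was the nearest protein-coding one, assigned to Mir7671 at 6172 bases and to Gm12216 at 24594 bases, and the authors' deposited table puts their changes at -4.15 and -3.94 on the log2 scale.

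The Irf2bp genes Irf2bp2 and Irf2bpl carried 10 of the 16 sites. In all, 81.6% of the protein-coding genes with a site had only 1, 2.05% had 4 or more and 0.476% had 6 or more, and Irf2bp2 had 4 and Irf2bpl 6. Over these 10 sites the signal summed to 21.2 ± 27.4 normalized reads in UTX-deficient and 516.8 ± 65.8 in WT cells (SD, n = 3 each), against 8.28 ± 9.5 and 198.8 ± 17.2 over the 6 sites of the Irf genes. WT was 16.3-fold above the 2 deeper UTX-deficient libraries at the Irf2bp genes and 16-fold at the Irf genes. The difference between them was not tested.

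The best covered site of the family was at Irf2bp2. It lay on chromosome 8 from 126594385 to 126594785, with its middle 599 bases before the start, just outside the promoter window printed above and inside the lncRNA gene Gm31546. It held 3, 8 and 0 reads in the UTX-deficient libraries and 96, 90 and 69 in the WT libraries, or 3 ± 3.94 normalized reads in UTX-deficient and 86.8 ± 11.6 in WT cells (SD, n = 3 each). Its WT concentration of 6.44 (log2) was at percentile 92.2 of all listed sites. In the plane of the 2 group concentrations the sites nearest to it were at Rbm38, Zfp869 and Runx3. By the authors' deposited table their log2 changes were -4.05, -4.23 and -4.19, and that of the Irf2bp2 site was -4.27. The other 3 Irf2bp2 sites were distant. One from 126584172 to 126584572 lay past the end of the gene, 9614 bases from the start, and held 2, 2 and 0 reads in UTX-deficient and 45, 34 and 24 in WT libraries. A pair lay 68962 and 72619 bases before the start, from 126662748 to 126663148 and from 126666405 to 126666805. The nearer of the pair held 3, 11 and 0 reads in UTX-deficient and 77, 55 and 32 in WT libraries, and the farther 1, 2 and 0 in UTX-deficient and 49, 42 and 23 in WT libraries. Though less than 4 kb apart by these positions, the pair differed in what was left: 11% of the WT signal at the nearer and 3.16% at the farther in the 2 deeper UTX-deficient libraries, and by the authors' deposited table their log2 changes were -3.03 and -4.35. The difference between these sites was not tested.

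The 6 Irf2bpl sites reached over 69.7 kb of chromosome 12, and only 1 of them was at the gene. That site, from 86884727 to 86885127, spanned the start and held 3, 3 and 0 reads in the UTX-deficient libraries and 68, 46 and 22 in the WT libraries. The WT libraries were spread widely here, at 43.7 ± 13.9 normalized reads (SD, n = 3), and the authors' deposited table puts the change at -3.94 on the log2 scale (FDR 1.16e-09). A site 9642 bases before the start, from 86894256 to 86894656, was stronger, with 2, 8 and 0 reads in UTX-deficient and 81, 74 and 50 in WT libraries. The remaining 4 lay 24483, 47968, 50742 and 59620 bases past the start, downstream of the short gene, and the last 3 of these inside the lncRNA gene Gm51955.

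Among these downstream sites was the largest decrease of the family. The site from 86833872 to 86834272, which also overlapped the promoter window of Gm40491, a lncRNA gene, held 0, 1 and 0 reads in the UTX-deficient libraries and 74, 60 and 40 in the WT libraries. The authors' deposited table puts the change at -5.62 on the log2 scale (FDR 2.34e-12), at percentile 0.163 of all listed folds, and 0.804% of the WT signal was left in the 2 deeper UTX-deficient libraries. With 1 read in all in the UTX-deficient group, the size of that fold is poorly determined; limma without the shallowest library gave -5.40 ± 0.49 (SE, adjusted p = 1.73e-07). Its neighbour from 86836646 to 86837046 held 5, 10 and 0 reads in UTX-deficient and 65, 72 and 48 in WT libraries, leaving 9.4%. The site from 86860131 to 86860531 held 2, 7 and 0 reads in UTX-deficient and 38, 25 and 27 in WT libraries, and the one from 86824994 to 86825394 held 1, 4 and 0 in UTX-deficient and 54, 40 and 27 in WT libraries. The 2 neighbours were alike in WT level, at percentiles 83 and 85.7, while the authors' deposited table puts their changes at -5.62 and -3.38 on the log2 scale; this difference was not tested. Beyond the 6, a strong site assigned to Lrrc74a, with 2, 13 and 0 reads in UTX-deficient and 185, 146 and 100 in WT libraries, was also nearest to the Irf2bpl start among protein-coding starts, 73841 bases away.

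**Figure D2:**
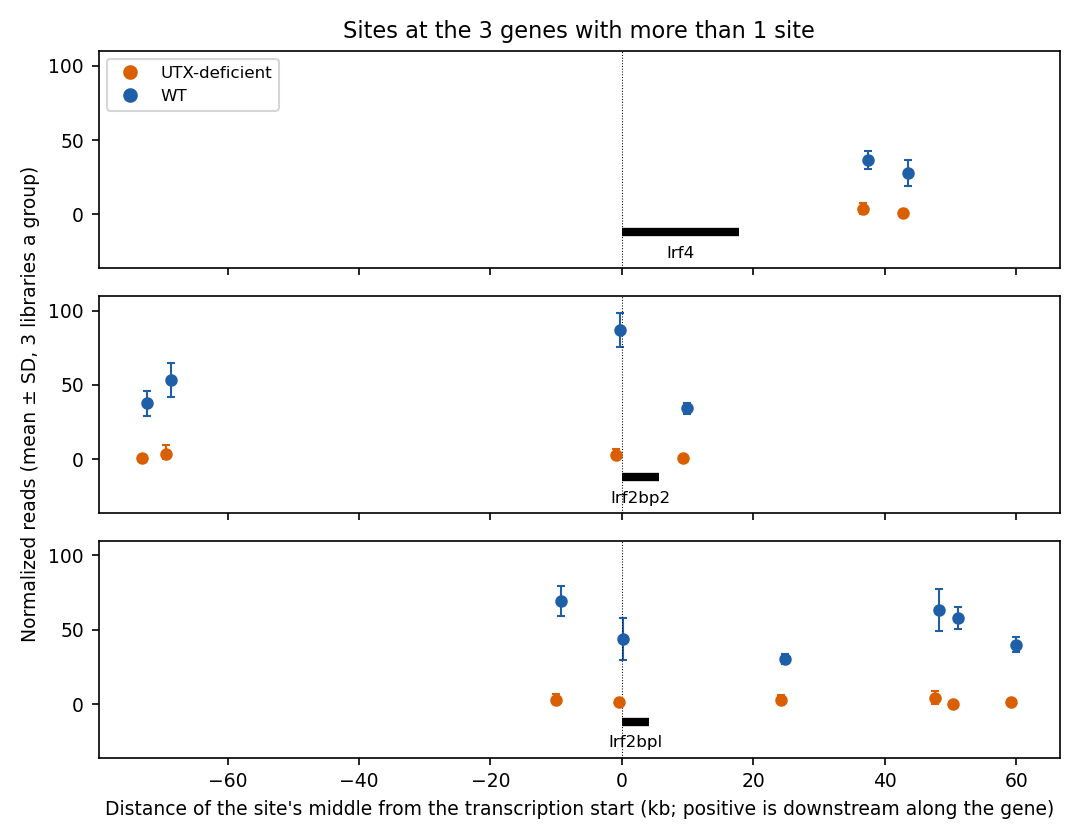
Sites of Irf4, Irf2bp2 and Irf2bpl by the distance of their middle from the transcription start (horizontal axis, kb, positive along the direction of transcription, the gene as a black bar) and their normalized reads (vertical axis, mean ± SD of 3 libraries a group, UTX-deficient drawn just left of WT, lower bars ending at 0). Irf4 has no site at its start, Irf2bp2 has its highest WT mean, 86.8, 599 bases before the start, and Irf2bpl has WT means from 30.4 to 69.1 over the whole stretch. The UTX-deficient means include the 0 reads of the shallowest library.

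By position, 6 of the 16 sites lay within 1 kb of a start of their gene, against 60.9% of the 5395 listed sites whose assigned gene has a start on file, and 8 lay more than 10 kb away, against 26.2%. The 8 distant sites belong to Irf4, Irf2bp2 and Irf2bpl alone, so these counts describe 3 loci. At 15 of the 16 sites the nearest protein-coding start was that of the assigned gene, against 86.1% of all such sites. The 6 sites near a start had a median of -4.11 and the 10 others of -3.80 (log2 fold, authors' deposited table). Over the 16 sites the signal left in the 2 deeper UTX-deficient libraries ranged from 0.804% to 15.2% of WT with a median of 5.25%, beside 5.75% over all sites lower in UTX-deficient cells. What was left came mostly from 1 library: the middle UTX-deficient library had more normalized reads than the deepest at 16 of 16 sites and at 84.0% of all sites lower in UTX-deficient cells. Its part in the differences among the 16 sites was not tested.

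**Figure D3:**
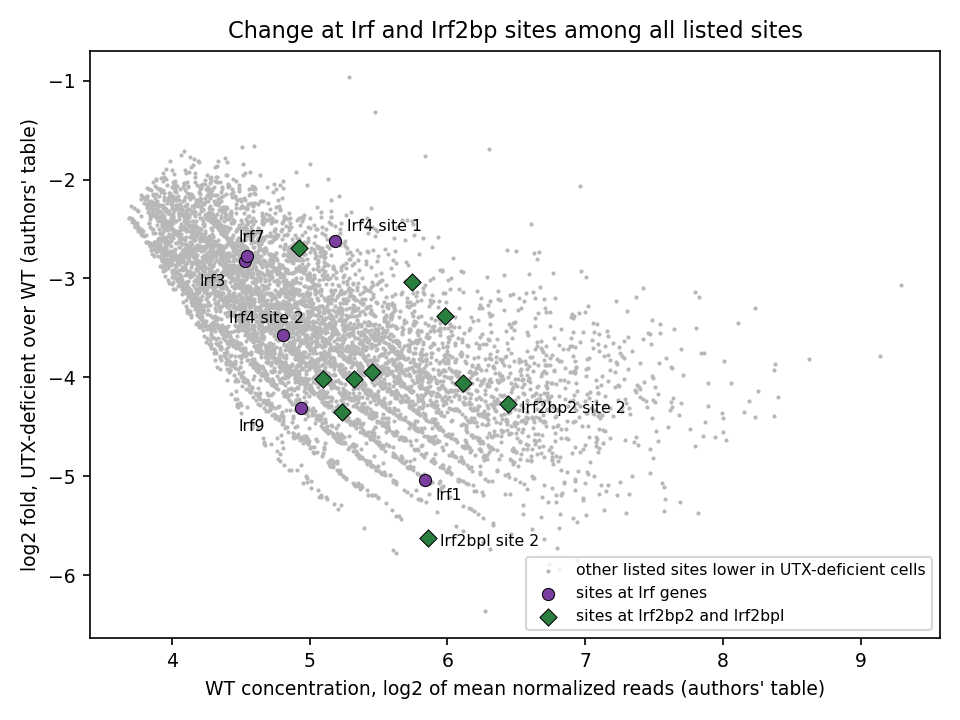
Log2 fold of UTX-deficient over WT (vertical axis) against the WT concentration, log2 of mean normalized reads (horizontal axis), both from the authors' deposited table, for the sites of the Irf genes (purple circles), those of Irf2bp2 and Irf2bpl (green diamonds) and, in grey, the other listed sites lower in UTX-deficient cells. The 16 sites spread over the grey field, from Irf7 and Irf3 at low WT levels with log2 values of -2.77 and -2.83 to Irf2bpl site 2 at -5.62.

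The rest of the interferon pathway was read from gene lists. Sites lower in UTX-deficient cells were assigned to 4837 of 21900 protein-coding genes (22.1%). No gene of the lists had a site that was higher, but only 21 of all 6739 listed sites were higher. The list of interferon receptors and signal transducers also held regulators of these, among them Socs1, Socs3, Usp18 and Ptpn genes. Of its 19 genes, 17 had a site (89.5%). Their median log2 fold was -3.75 over the site of lowest FDR of each gene, by the authors' deposited table. Ifngr1, a chain of the interferon gamma receptor, held 8, 10 and 0 reads in UTX-deficient and 106, 76 and 75 in WT libraries at its start, a change of -3.71 (log2) by the authors' deposited table. By the authors' deposited table the log2 change was -4.18 at Ifnar1, a chain of the type I receptor, and -4.72 and -4.63 at the negative regulators Socs1 and Ptpn2. It was -2.79 (FDR 0.012) at Stat2, a partner of IRF9, by the authors' deposited table. Ifngr2 and the deubiquitinase-like regulator Usp18 had no listed site. Stat2, Ifngr2 and Usp18 were named after the values had been seen.

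Other lists held the genes on either side of these receptors and transducers. Of the sensors and kinases upstream of IRF3 and IRF7, 6 of 21 had a site (28.6%), with a median log2 fold of -2.90. Traf3, an adaptor of these pathways, had -4.48, Irak4, a kinase of Toll-like receptor signalling, -3.45, Tank -3.27 and Sting1, the adaptor of cytosolic DNA sensing, -2.49 in the authors' deposited table. Tbk1 and Ikbke, the kinases of IRF3 and IRF7, had no listed site, which was noted after the values had been seen. Of the interferon-stimulated targets, 11 of the 33 on file in the annotation had a site (33.3%), with a median log2 fold of -2.72. Oas3, an antiviral synthetase, had -4.93, the immunoproteasome subunit gene Psmb9 -4.17, Samhd1 -4.59 and B2m, the light chain of MHC class I, -3.41 in the authors' deposited table. Classic targets such as Isg15, Ifit1, Ifit3, Mx1 and Rsad2, named after the values had been seen, had none. The annotation also holds genes that are silent in T cells, and expression was not measured here.

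The last lists held the partners of the family. Of the DNA-binding partners of IRF proteins, 13 of 18 had a site (72.2%), with a median log2 fold of -3.66, among them Runx3 at -4.86, Junb at -4.49, Jund at -3.66 and Fos at -4.60 in the authors' deposited table. Batf, with which IRF4 acts in T cells, had -2.38 (log2) by the authors' deposited table at the site with its lowest FDR, which held 2, 2 and 0 reads in UTX-deficient and 19, 21 and 8 in WT libraries, and was named after its values had been seen. Of the partners and targets of IRF2BP proteins, 8 of 12 had a site (66.7%), with a median log2 fold of -3.66, among them Klf2 at -3.56, Spop at -5.07, Ets1 at -4.27 and Vgll4, a cofactor that binds IRF2BP2, at -4.58 by the authors' deposited table. These genes were not matched for length or expression, and no test of the lists was made. Of all 17492 protein-coding genes with a start on file, 17.8% had a listed site within 1 kb of it. Such a site was listed at 10 of 15 receptors, transducers and their regulators (66.7%). It was listed at 3 of 16 sensors and kinases (18.8%) and 5 of 27 targets (18.5%). Of the partners, 7 of 13 DNA-binding ones (53.8%) and 4 of 8 of IRF2BP proteins (50%) had one. The sensors and the targets were thus close to the share of all genes.

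**Figure D4:**
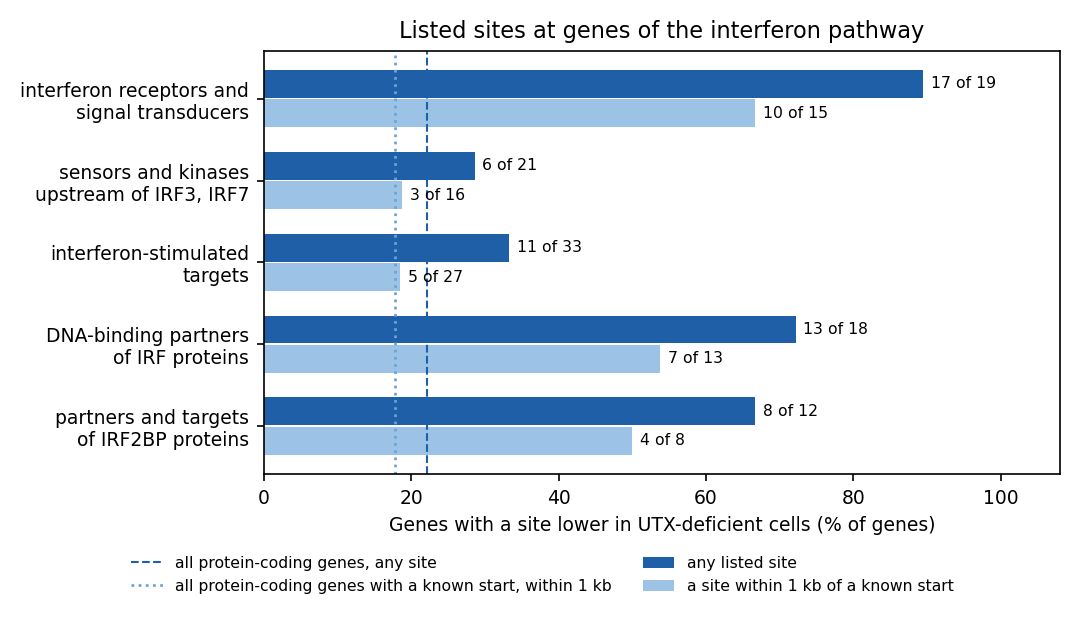
Share of the genes of 5 lists with a site lower in UTX-deficient cells (horizontal axis, percent), for any site (dark bars) and for a site within 1 kb of a known start (light bars, over genes with a start on file), with the gene numbers beside the bars and the shares of all protein-coding genes, 22.1% and 17.8%, as dashed and dotted lines. The list of receptors and signal transducers, which also holds their regulators, reaches 89.5% and interferon-stimulated targets 33.3%.

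Within 100 kb of the sites assigned to each gene, sites assigned to genes outside the family numbered 7 at Irf9, 6 at Irf3, 5 at Irf7, 4 each at Irf1 and Irf2bpl, and 0 at Irf4 and Irf2bp2. Those near Irf9 included Psme2 and Psme1, the genes of an interferon-induced proteasome activator, whose log2 changes were -4.76 and -3.64 by the authors' deposited table. These counts have no share of all listed sites or genes beside them. The stretches searched also differ, as the sites span 0.401 kb at Irf9 and 82.63 kb at Irf2bp2. The counts therefore describe these genes only. The Psme genes were picked with their values known.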

How the data were processed

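UTX CUT&Tag was measured in 3 UTX-deficient and 3 WT samples. The submitters' processing notes name build mm10, DiffBind, MACS2, Picard, SAMtools, Bowtie2, cutadapt and FastQC. Their versions and settings, and any pooling before peak calling, were not given in the sources used here. The deposited table, per its column headers, holds, for sites of 401 bp, log2 concentrations (mean normalized reads over all samples or a group, lowest value 0), a log2 fold (negative where UTX-deficient cells are lower), and the authors' p-value and FDR, all under 0.05. The table has no column per sample.

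Calls were taken from the authors' FDR and sizes from their fold. Reads per library were solved from the group concentrations as sums of whole reads times the worth of 1 read of each library, at 6732 of 6739 sites; the depths so found summed to 6 over the 6 libraries, and sums shifted off their value were solved in 0.333% (WT) and 0% (UTX-deficient) of 1500 trials. The recovery and limma were tested on simulated data, where limma found few of the lowered sites with all libraries and nearly all without the shallowest one. There the reads of the shallowest library were drawn without regard to listing. In the real data it held 0 reads at sites lower in UTX-deficient cells, and limma with all libraries called 99.8% of all sites. The simulation therefore does not decide between the fits. The fit without that library is quoted per site because a 0 there is close to a condition of listing. One read of the shallowest library is worth 173.2 normalized reads. log2(normalized reads + 1) was tested with limma 3.58.1 in R 4.3.3 over all listed sites with recovered reads, with Benjamini-Hochberg adjustment. The adjusted p-values therefore carry the selection that listing made. Without molecular identifiers, PCR copies may be counted more than once. A table of RefSeq promoter windows, which lacks some genes, gave transcription starts; symbols were matched by name or unique synonym (6677 sites). The members and lists were chosen with earlier results of these data known. Every member site is named, with up to 4 genes a list by smallest FDR and others as stated.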

Additional observations from a re-analysis of the deposited data

How the results depend on the processing

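No paired analysis was possible because the deposited table gives group values, and the recovered libraries carry no replicate number. Of 16 sites lower in UTX-deficient cells, 15 remained at FDR 0.01 and 14 at FDR 0.001, Irf7 and then Irf3 being lost. With sites within 1 kb or 10 kb of a gene end the count was 6 and 8. These counts, and the gene counts below at the same cuts, have no share of all listed sites or genes beside them. They therefore describe the members only. All 16 were called by limma with all libraries (where the 0 reads of the shallowest are close to a condition of listing) and without each library in turn, and each of these 112 values was lower in UTX-deficient cells (log2 differences from -5.87 to -2.57). These fits used listed sites only, so the calls largely follow from listing and are no independent support. With all libraries, and without the shallowest UTX-deficient one, 99.8% of all sites were called lower. The median log2 fold of -3.98 was -4.31 by limma with all libraries. It was -4.83 with a pseudocount of 0.5, -3.07 with 4, and from -4.85 to -3.83 with 1 library left out. Over all sites the medians were -4.09 with all libraries and -4.67 and -2.76 under the same pseudocounts. Without the shallowest UTX-deficient library the median was -3.645 over all sites and -3.83 over the 16. Genes with a site numbered 7, against 6 at FDR 0.01 and within either distance, 5 at FDR 0.001, 7 by the nearest protein-coding start whatever symbol was assigned, and 8 with sites across the gene added to these, an alternative chosen after seeing the data. With sites kept only where the assigned gene has the nearest start, 15 remained. Sites with few reads in UTX-deficient cells limit how well any fold is known.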
